A study of Mus musculus with 29 samples.

Results

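The comparison described here is that of C70 with vehicle in 3T3-L1 cells collected at day 7 of adipocyte differentiation, a week after the inhibitor had been removed. It comprised all libraries that the labels place at day 7, which were 4 C70 and 4 vehicle (DMSO) libraries, or 8 of the 29 in the series. All 11959 genes of the table were examined. 3T3-L1 is an established line of mouse embryonic fibroblasts whose cells, once given a hormonal cocktail, become fat cells in the dish. Preadipocytes received 10 µM C70, an inhibitor of the KDM5 histone demethylases, or vehicle from day -2 to day 0, and the remaining libraries were made at days 0, 1 and 2 (3 vehicle and 4 C70 at each). Both day 7 groups therefore shared the cell line, the hormonal cocktail and the 2 days of treatment, which ended at day 0. These data do not show whether any C70 stayed in the cells. The labels do not say whether replicates were separate cultures, so that P values measure the spread between these libraries.

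KDM5 enzymes remove methyl groups from lysine 4 of histone H3, a mark of active promoters. During adipogenesis, fibroblast-like preadipocytes shut down genes of the extracellular matrix and switch on PPARγ and C/EBPα, which in turn activate genes of lipid storage, fatty acid synthesis and adipokine secretion. Mature adipocytes also carry many mitochondria and secrete hormones in quantity.

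Total counts of the 8 libraries lay between 18469097 and 21433580, and the first principal component (51.1% of the variance) separated C70 from vehicle. Vehicle replicate 1 stood apart on the next component (22.6%), and its sample quality weight was 0.084 where the average library has 1. Its deviation from the other vehicle libraries followed transcript length, with a median log2 difference of 0.34 in the shortest 20% of genes and -0.32 in the longest 20%. The median C70 effect of those classes was -0.08 and 0.09 with all libraries, and 0.0053 and 0.018 without vehicle replicate 1. The main results are therefore also given without this library.

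A week after C70 had been removed, many genes of the stroma and the extracellular matrix were higher. Some genes of cholesterol synthesis, the unfolded protein response and glycolysis were lower. Across all genes, 1707 (14.3%) were higher and 580 (4.85%) lower after C70 at day 7, with an adjusted P below 0.05 and a log2 change beyond 0.32 (edgeR, quasi-likelihood). Without vehicle replicate 1, 1698 (14.2%) were higher and 448 (3.75%) lower, of which 1524 and 370 were the same genes. The C70 values lay entirely above the vehicle values for 16.5% of all genes and entirely below for 12.8%, and they were so separated for 1433 of the higher and 479 of the lower genes. The rises were larger than the falls: 320 genes were higher and 8 lower by more than 2-fold, and the median log2 fold change was 0.63 among higher and -0.41 among lower genes. The higher genes were also the less abundant, with a median mean CPM (read counts scaled by library size) of 12.2 against 34.3 for the lower genes and 31.0 for all. Rises made up 74.6% of the calls with TMM scaling (a trimmed mean of log ratios between libraries) and 60.5% after quantile normalization (1274 higher and 831 lower). The median log2 fold change over all genes was 0.0038.

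**Figure D1:**
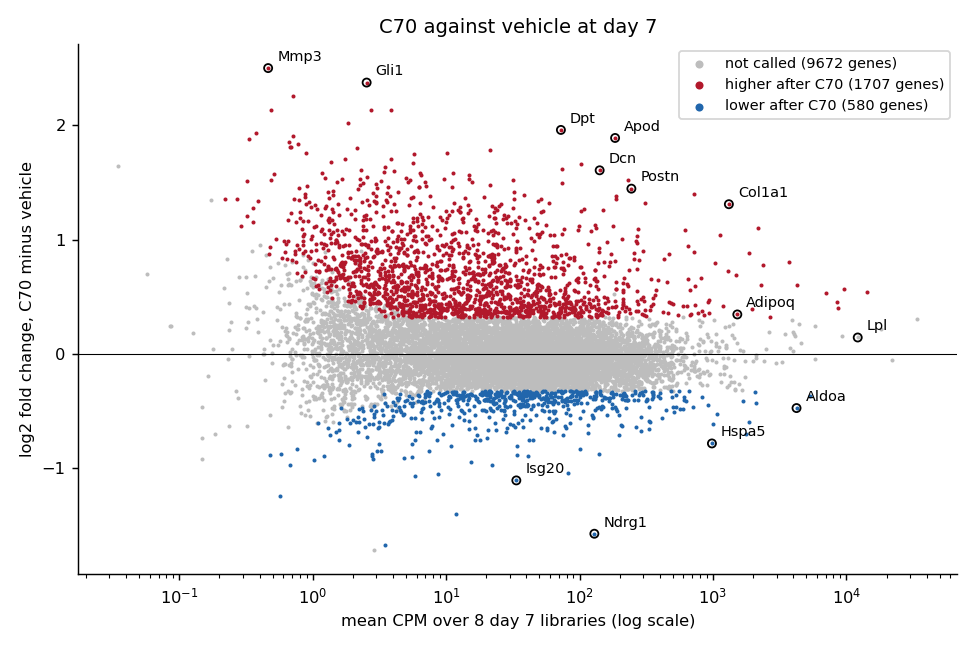
Log2 fold change of each gene at day 7 (C70 minus vehicle, vertical axis) against its mean CPM over the 8 day 7 libraries (horizontal axis, log scale). The 1707 higher genes reach beyond 2 on the log2 scale mostly at low CPM, while the 580 lower genes stay closer to 0 except for a few such as Ndrg1 and Isg20.

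The cells at day 7 carried the markers of adipocytes in both groups. Of 8 adipocyte markers, only Adipoq, which encodes the hormone adiponectin, passed the thresholds. Adipoq CPM was 1619.8, 1286, 1225 and 1228 in the 4 vehicle libraries and 1742, 1793, 1636 and 1643 in the 4 C70 libraries. The groups did not overlap, although vehicle replicate 1 came within reach of the lowest C70 library. The log2 fold change was 0.35 (SE 0.0733, adjusted P = 0.000319, edgeR), or 0.46 without that replicate. Fabp4, a fatty acid carrier, was at 5898 ± 938 CPM in vehicle and 5711 ± 222 with C70 (SD, n = 4 each). Pparg, the master regulator of adipogenesis, was at 484 ± 22.7 and 435 ± 28 CPM (SD, n = 4 each), a log2 fold change of -0.15 that did not pass the fold threshold. The log2 fold changes of Plin1, Cidec, Lpl, Cfd and Lipe, which serve lipid storage, lipid uptake, complement and lipolysis, were between 0.08 and 0.20. None of these passed with all libraries, but Cfd did without vehicle replicate 1 (log2 fold change 0.34).

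In contrast, all 6 markers of preadipocytes and fibroblasts rose. Dlk1, the preadipocyte factor whose loss accompanies differentiation (chr12:109452823-109463336, plus strand, GRCm38), was at 249, 157, 170.4 and 233 CPM in vehicle and 354, 365, 326 and 384 with C70. Every C70 library lay above every vehicle library, with a log2 fold change of 0.82 (SE 0.0870, adjusted P = 5.89e-09, edgeR). Both levels were far below that of vehicle cells at day 0, which was 2572 ± 98.2 CPM (SD, n = 3). Pdgfra, a receptor that marks adipocyte progenitors (chr5:75152292-75198215, plus strand), was at 161, 163, 174 and 206 CPM in vehicle and at 365, 305, 369 and 403 with C70 (log2 fold change 1.04, SE 0.0691). The log2 fold changes of Thy1, Col1a1, Col3a1 and Vim were 1.39, 1.31, 0.88 and 0.36, but Vim did not pass after quantile normalization (0.27). In bulk RNA, a larger share of undifferentiated cells and more of these transcripts per cell cannot be told apart. Of markers of other cell types, Runx2 and Spp1 of the osteoblast list rose (log2 fold changes 0.40 and 0.61), and Runx2 did not pass without vehicle replicate 1. None of the 5 brown adipocyte markers (Ucp1, Cidea, Prdm16, Dio2 and Elovl3) and no endothelial, skeletal muscle or epithelial marker of the lists used was in the table. Of 16 genes of a wider brown and beige list 2 were in it, of which Ppargc1a, a coactivator of mitochondrial genes, was higher (0.73) and Kcnk3, a potassium channel, lower (-0.56). The macrophage markers Cd68 and Cd14 were at 2.43 ± 0.346 and 2.83 ± 0.691 CPM in vehicle and 1.94 ± 0.705 and 3.10 ± 0.233 with C70 (SD, n = 4 each). Neither was called, but Cd68 was lower after quantile normalization (log2 fold change -0.56, adjusted P = 0.00688, limma).

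Among genes above the median CPM and with separated groups, those with the largest rises included Dpt. It encodes dermatopontin, a matrix protein that binds decorin (chr1:164796644-164824266, plus strand), and its CPM was 41.9, 23.4, 24.4 and 29.1 in vehicle and 115, 112, 112 and 122 with C70. Its log2 fold change was 1.96 (SE 0.103, adjusted P = 2.69e-15, edgeR) and 2.17 without vehicle replicate 1, the highest of the vehicle values. Dpt was at 28.5 ± 1.43 CPM in vehicle cells at day 0 (SD, n = 3), so that the C70 cells at day 7 exceeded even the preadipocyte level.

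Apod, a lipocalin that carries small hydrophobic molecules (chr16:31296192-31314808, minus strand), was at 111, 55.9, 65.0 and 82.3 CPM in vehicle and 305, 268, 278 and 311 with C70 (log2 fold change 1.89, SE 0.129). Abcd2, a peroxisomal transporter of very long chain fatty acids, went from 36.4 ± 1.36 to 111 ± 6.83 CPM (SD, n = 4 each). It was at 6.92 ± 0.572 CPM in vehicle at day 0 (SD, n = 3). Others of the set were Dcn (decorin), Ltbp4 (a binding protein of latent TGF-β), Ptn (pleiotrophin), Cdh11 (a mesenchymal cadherin), Postn (periostin), Ifi205 (an interferon-inducible gene), Sned1 (a matrix protein) and Thy1, with log2 fold changes from 1.39 to 1.61. Ifi205 has close paralogs, among which the counting could have divided reads.

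**Figure D2:**
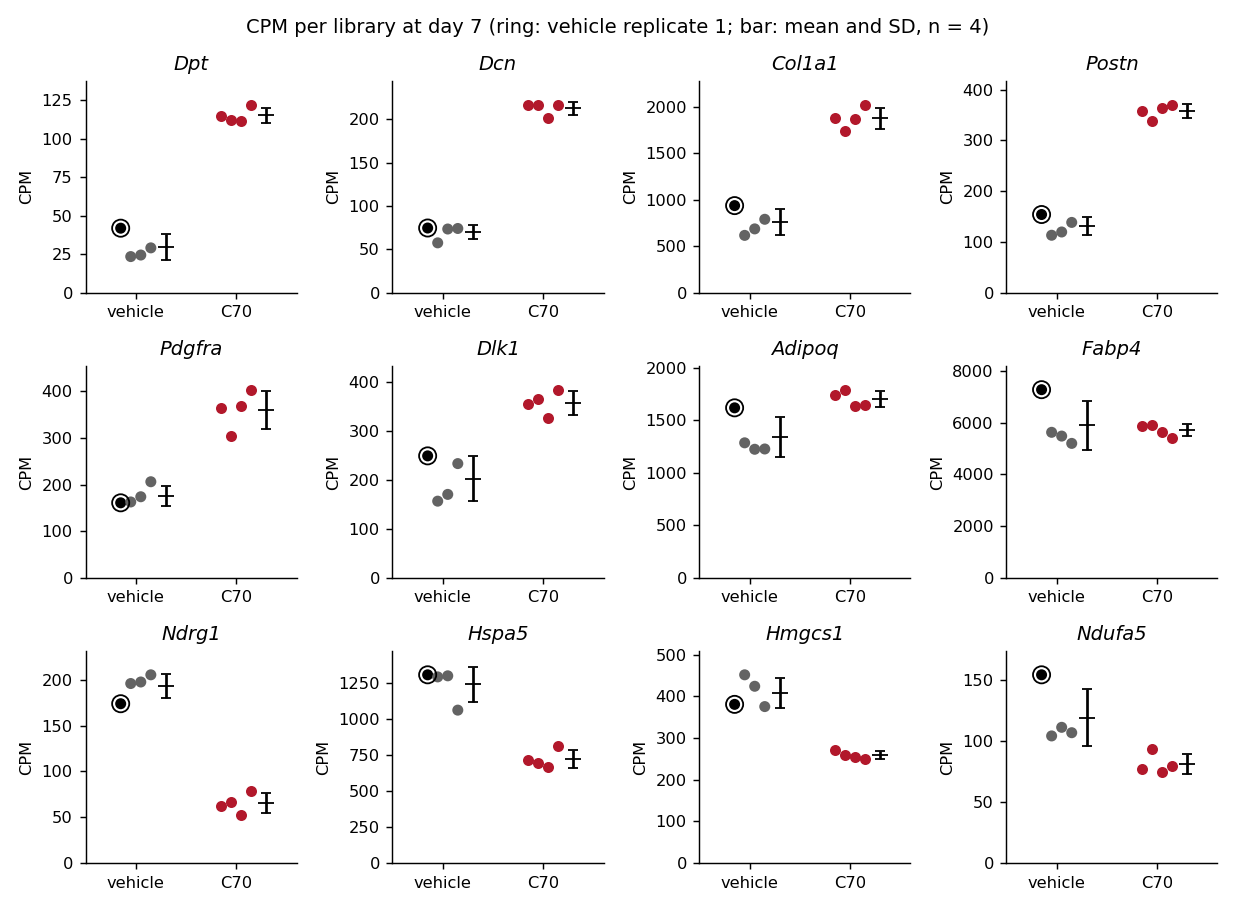
CPM in each of the 8 day 7 libraries for 12 genes (vertical axis, from 0), with vehicle in grey, C70 in red, a ring around vehicle replicate 1, and the mean and SD (n = 4) beside each group. Dpt, Dcn, Col1a1, Postn, Pdgfra and Dlk1 are separated upwards and Ndrg1, Hspa5, Hmgcs1 and Ndufa5 downwards, whereas Fabp4 overlaps. Vehicle replicate 1 is the extreme vehicle value for many of the 12 genes, among them Fabp4. It is the highest for Dpt, Col1a1, Postn, Dlk1, Adipoq, Hspa5 and Ndufa5 and the lowest for Pdgfra and Ndrg1.

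Matrix genes rose broadly, where 14.3% of all genes were higher and 4.85% lower. Of 22 collagen genes, 16 rose and 2 fell (Col7a1 and Col11a2), with a median log2 fold change of 0.81 beside 0.0038 for all genes. The others included Col5a2 (0.08) and Col18a1 (-0.06), both abundant, so the rise did not extend to every chain. Col1a1 encodes the α1 chain of type I collagen (chr11:94936224-94953042, plus strand), and its CPM was 935, 615, 685 and 788 in vehicle and 1872, 1742, 1864 and 2021 with C70. The log2 fold change was 1.31 (SE 0.0813, adjusted P = 9.59e-14, edgeR). Its vehicle level at day 0 was 10696 ± 359 CPM (SD, n = 3), so that the C70 level at day 7 remained well below that of preadipocytes. Its partner Col1a2 (1.10), the minor fibrillar chain Col11a1 (1.36), the basement membrane chain Col4a1 (0.80) and the microfibrillar chain Col6a3 (0.61) rose too. Summed over the list, collagens took 14658 to 15504 CPM in the vehicle libraries and 23303 to 27612 in the C70 libraries.

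The enzymes that process and crosslink collagen followed, with 13 of 23 higher, none lower and a median of 0.47. They included the crosslinking oxidase Loxl3 (1.21) and Pcolce (0.90), an enhancer of procollagen cleavage. The general folding enzyme P4hb was at 765 ± 52.5 and 839 ± 41.0 CPM (SD, n = 4 each) and did not pass. Among 44 other matrix proteins, 35 rose and none fell (median 0.63). Postn (chr3:54361109-54391037, plus strand) was at 154, 113, 119.6 and 138 CPM in vehicle and 358, 338, 364 and 371 with C70, a log2 fold change of 1.45. Proteases and their inhibitors rose as well, 22 of 29 with 1 lower (median 0.66), among them Mmp3 and the aggrecanase Adamts5 (1.36, SE 0.0642). With TMM scaling Mmp3 had the largest rise of all genes (2.50, SE 0.479), but its value was 1.28 after quantile normalization. Its CPM was only 0.116, 0.169, 0.147 and 0.110 in vehicle and 0.429, 0.532, 0.833 and 1.37 with C70. Without vehicle replicate 1 the matrix lists held 16, 14, 33 and 22 higher genes in the same order.

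With TMM scaling, preadipocyte and stromal markers formed the list with the highest median, 0.83. In it 14 of 19 were higher and none lower (0.94 and also 14 without vehicle replicate 1), against 14.3% and 4.85% of all genes. After quantile normalization its median was 0.76, and that of the collagens was higher (0.78). The stromal list shares Dpt, Dlk1, Thy1 and Pdgfra with the results above. Of the signalling lists, Hedgehog and Notch had 11 of 18 higher and Wnt 13 of 29. The fibroblast and platelet growth factor families had 16 of 30 and axon guidance 26 of 37, against 14.3% of all genes. Without vehicle replicate 1 the higher members numbered 9, 11, 17 and 24, against 14.2% of all genes. The medians of these lists were 0.35, 0.25, 0.37 and 0.42. The numbers of lower members were 0, 0, 1 and 2, or 0, 0, 0 and 2 without vehicle replicate 1.

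Gli1, the transcription factor that is itself a target of Hedgehog signalling (chr10:127329882-127341974, minus strand), was at 0.640, 0.620, 0.833 and 1.15 CPM in vehicle and 3.81, 4.50, 4.58 and 4.17 with C70. The log2 fold change was 2.37 (SE 0.199, adjusted P = 5.21e-11, edgeR), after 3.80, 3.35 and 4.38 at days 0, 1 and 2. At day 0, when C70 had just been removed, Gli1 was at 41.8 ± 1.67 CPM with C70 (SD, n = 4) and 3.02 ± 0.770 in vehicle (SD, n = 3). Gas1, a Hedgehog co-receptor, rose by 1.01 on the log2 scale. Wnt5a and its receptor Ror2, which act outside the β-catenin pathway, had log2 fold changes of 1.26 and 1.58. However, Ror2 stayed near or below 1 CPM, and its value was 0.63 after quantile normalization. The growth factor Fgf10, which promotes preadipocyte growth, went from 14 ± 1.22 to 29.5 ± 2.86 CPM and the receptor Egfr from 30.6 ± 2.05 to 72.7 ± 5.14 (SD, n = 4 each). The guidance cues Slit3 and Sema3a rose by log2 values of 1.13 and 1.06, and the chemokine Cxcl12 by 0.98.

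Among 15 imprinted growth genes, 8 rose and Peg10 fell (median 0.56). They included Mest, a gene of adipose expansion (CPM 24.8, 22.7, 19.2 and 24.7 in vehicle and 45.0, 47.7, 43.6 and 44.6 with C70), and Dlk1. Ccnd1, which encodes cyclin D1 and is repressed as preadipocytes mature, went from 35.2 ± 6.87 to 76.5 ± 6.15 CPM (SD, n = 4 each, log2 fold change 1.13). In its list of 19 cyclin D, CDK and RB family genes, only Ccnd1 was called (median -0.02). Without vehicle replicate 1, 3 of the 19 were higher and none lower. Of 46 S phase genes 2 were higher and 3 lower, or 4 and 2 without vehicle replicate 1, and of 51 G2/M genes 5 and 2, or 4 and 3, where 14.3% of all genes were higher and 4.85% lower. After quantile normalization more of them were lower, with 1 higher and 12 lower S phase genes (median -0.13) and 2 higher and 17 lower G2/M genes (median -0.24). The KDM5 genes themselves did not pass: Kdm5a was at 161 ± 31.2 and 157 ± 14.2 CPM, and Kdm5c at 162 ± 21.3 and 162 ± 12.9 (SD, n = 4 each). Vehicle replicate 1 was the lowest vehicle library for each of these and for Kdm5b.

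**Figure D3:**
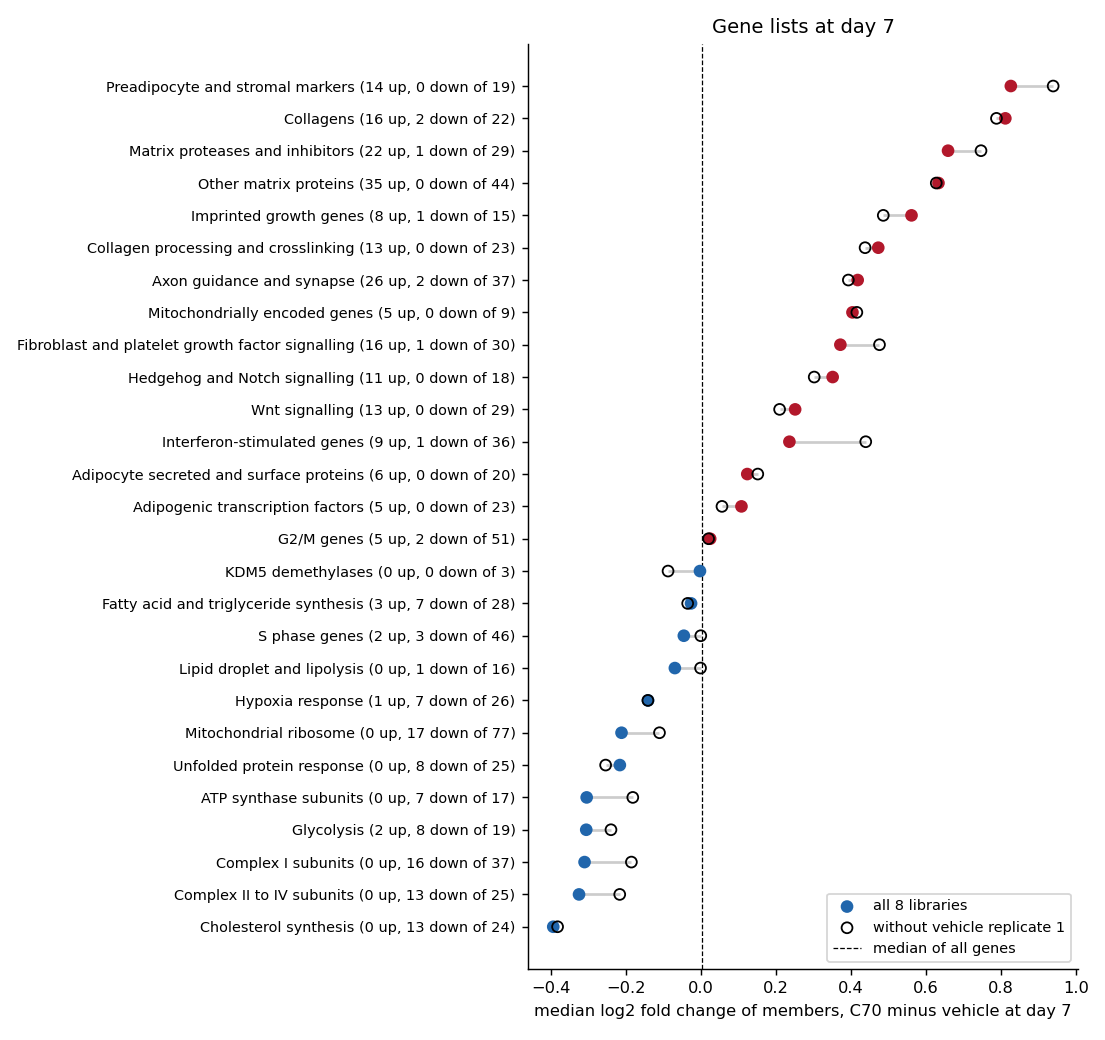
Median log2 fold change of each gene list at day 7 with all 8 libraries (filled) and without vehicle replicate 1 (open), with the members called up and down; the dashed line is the median of all genes. Stromal and matrix lists lie to the right and cholesterol and respiratory lists to the left, and the interferon list moves furthest when vehicle replicate 1 is left out.

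Genes that rose at day 7 were mostly those that vehicle cells had turned down early in differentiation. In vehicle alone, 3875 genes (32.4%) fell and 3989 (33.4%) rose between day 0 and day 2, a comparison that shares no library with day 7. Of the genes that fell, 1235 (31.9%) were higher after C70 at day 7 and 99 (2.55%) lower. Of those that rose, 241 (6.04%) were higher and 343 (8.60%) lower, and of the 4095 that did neither, 231 (5.64%) and 138 (3.37%). The median day 7 log2 fold changes were 0.17, -0.08 and -0.02 in these classes. The early decliners thus made up 72.3% of the 1707 rises, and the early risers 59.1% of the 580 falls. Without vehicle replicate 1 the corresponding counts were 1237 higher among decliners and 249 lower among risers. The decliners also had a lower median mean CPM at day 7 (18 against 46.3 for risers), and the part of this difference in the result was not tested.

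The day 7 levels of these genes lay mostly below those of preadipocytes. Among the 1235 genes, 1134 remained below their vehicle level at day 0 in the C70 cells. Their median level was 36.4% of the day 0 vehicle level with C70 and 22.4% in vehicle at day 7. However, the class was chosen by a fall from that same day 0 level, which favours values below it. The share among other genes is not given here. Ptn, for instance, was at 4614 ± 191 CPM in vehicle at day 0 (SD, n = 3), and at day 7 it was at 118 ± 37.0 in vehicle and 339 ± 28.8 with C70 (SD, n = 4 each). Cdh11 followed the same course, from 702 ± 19.8 at day 0 (SD, n = 3) to 38.8 ± 3.17 and 109.7 ± 6.50 CPM (SD, n = 4 each).

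**Figure D4:**
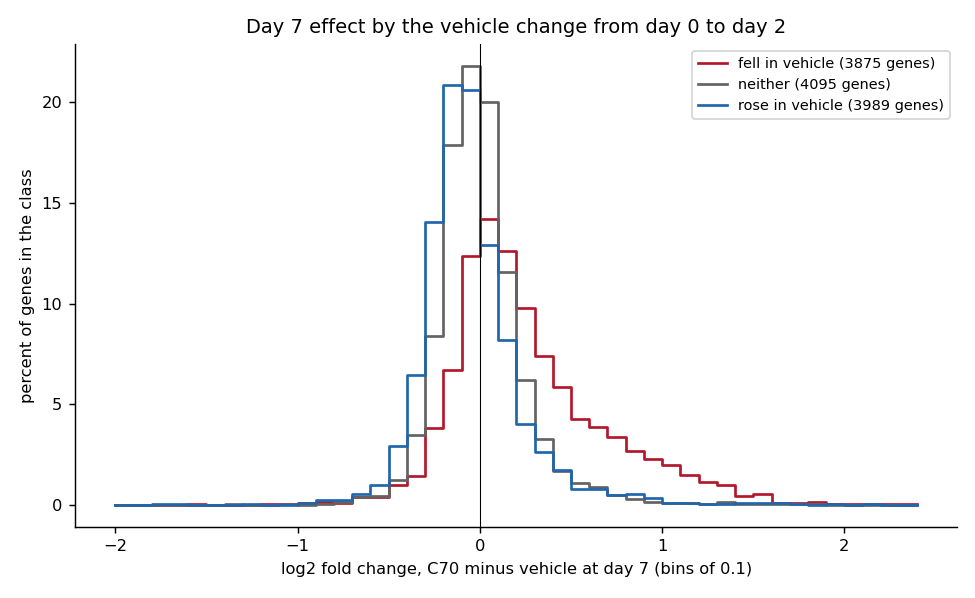
Distribution of the day 7 log2 fold change (horizontal axis, bins of 0.1) as a percentage of genes (vertical axis) for genes that fell, rose or did neither in vehicle between day 0 and day 2. The genes that fell have a long tail above 0, whereas the 2 other classes lie around 0.

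Of 23 adipogenic transcription factors 5 rose and none fell, against 14.3% and 4.85% of all genes, and 3 were higher after quantile normalization. Those that rose included Klf5 (from 10.9 ± 1.53 to 21.1 ± 1.40 CPM, SD, n = 4 each), an early factor. Of 20 adipocyte secreted and surface proteins 6 rose and none fell, or 7 and 1 without vehicle replicate 1, among them the caveolar protein Cav1 (from 1014 ± 17.9 to 1356 ± 43.1 CPM, SD, n = 4 each) and Adipoq.

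Of 28 genes of fatty acid and triglyceride synthesis, 7 (25%) were lower and 3 (10.7%) higher (median -0.03). Over all genes 4.85% were lower and 14.3% higher. Acly and Acaca, which make cytosolic acetyl-CoA and malonyl-CoA, were the higher ones of the core path. Acly was at 556, 606, 583 and 609 CPM in vehicle and 924, 737, 739 and 1158 with C70, a wide spread within the C70 group (log2 fold change 0.60, SE 0.0797, adjusted P = 4.51e-07, edgeR). Fasn, the next enzyme, was at 4042 ± 521 and 4854 ± 809 CPM (SD, n = 4 each) and did not pass, and Lpin1 had a log2 fold change of 0.03. The lower genes were led by Pck1 (-0.73), the enzyme of glyceroneogenesis, and Tkt (-0.53, SE 0.0470), a transketolase of the pentose phosphate path. The desaturase Scd2 fell (-0.36, SE 0.0501), while its paralog Scd1, at 30454 ± 2449 and 37722 ± 1549 CPM (SD, n = 4 each), had a positive value below the fold threshold (0.31), and reads common to both could have been divided by the counting.

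Cholesterol synthesis was the list with the lowest median, -0.39, with 13 of 24 genes lower and none higher. The same 13 genes were lower without vehicle replicate 1 (median -0.38). Over all genes 4.85% were lower, or 3.75% without that replicate. Hmgcs1, an early enzyme of the mevalonate path (chr13:119690379-119708260, plus strand), was at 380.4, 451, 424 and 375 CPM in vehicle and 272, 259, 253 and 249 with C70. Every C70 library was below every vehicle library. The log2 fold change was -0.66 (SE 0.0557, adjusted P = 6.12e-11, edgeR), and -0.68 without vehicle replicate 1. The abundant demethylase Cyp51 was at 1625 ± 61.9 and 1309 ± 77.5 CPM (SD, n = 4 each), just short of the fold threshold. At day 2 the list had been lower still, with 21 of 24 genes lower and a median of -0.99, where 13.6% of all genes were lower.

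Part of the unfolded protein response list fell. Of its 25 genes, 8 were lower and none higher, with a median of -0.22 (-0.25 and 9 lower without vehicle replicate 1). Over all genes 4.85% were lower, or 3.75% without that replicate. Promoters of 3 of the lower genes are shown because they carry the ER stress element, CCAAT and CCACG with 9 bases between them, which the factors ATF6 and NF-Y are known to bind. The windows are the 250 bases before the RefSeq start (GRCm38.p6), written 5′ to 3′ on the strand of the gene, with both arms of each match to either strand in capitals. Hsp90b1 also has in capitals a match to the sterol response element TCACNCCAC on the opposite strand. Their positions are chr2:34771840-34772089 on the plus strand, chr15:88819396-88819645 on the plus strand and chr10:86705445-86705694 on the minus strand.
Hspa5: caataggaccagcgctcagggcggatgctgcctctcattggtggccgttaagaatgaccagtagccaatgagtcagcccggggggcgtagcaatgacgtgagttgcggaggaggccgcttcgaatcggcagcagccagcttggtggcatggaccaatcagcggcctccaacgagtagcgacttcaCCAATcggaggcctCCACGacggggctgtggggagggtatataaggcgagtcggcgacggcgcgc
Creld2: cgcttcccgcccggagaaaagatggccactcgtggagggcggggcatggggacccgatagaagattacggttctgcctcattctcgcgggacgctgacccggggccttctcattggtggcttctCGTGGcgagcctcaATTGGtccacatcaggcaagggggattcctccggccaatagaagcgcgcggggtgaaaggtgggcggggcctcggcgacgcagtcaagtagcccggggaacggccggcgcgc
Hsp90b1: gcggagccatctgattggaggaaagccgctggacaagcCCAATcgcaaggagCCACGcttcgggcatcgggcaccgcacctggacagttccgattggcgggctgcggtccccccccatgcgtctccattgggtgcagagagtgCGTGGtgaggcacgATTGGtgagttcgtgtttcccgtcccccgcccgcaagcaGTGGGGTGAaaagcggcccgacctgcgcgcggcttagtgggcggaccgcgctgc
Of the 25 genes, 21 had such a window, and 8 of these carried the element, of which only these 3 were lower. The element was found in 33 of 27025 RefSeq promoters (0.122%), and the sterol element in 280 (1.04%). Among 17 cholesterol synthesis genes with a window, only Hmgcs1 carried the latter. A match of letters is a description and not evidence of binding.

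Hspa5, the major chaperone BiP, was at 1308, 1294, 1301 and 1062 CPM in vehicle and 716, 692, 666 and 815 with C70. The groups did not overlap, and the log2 fold change was -0.78 (SE 0.0551, adjusted P = 1.45e-12, edgeR; -0.75 without vehicle replicate 1). Creld2, an ER-resident disulfide isomerase, was at 47.3, 42.0, 44.8 and 37.7 CPM in vehicle and 24, 24.9, 22.1 and 27.4 with C70, again without overlap. Sdf2l1, a cofactor of BiP, fell most (-1.40 on the log2 scale, from 17.1 ± 3.48 to 6.49 ± 0.186 CPM, SD, n = 4 each), while Hsp90b1 (GRP94) had a log2 fold change of -0.41. Calr (calreticulin), which also carried the element, was at 1306 ± 104 and 1207 ± 79.3 CPM (SD, n = 4 each) and did not pass. The chaperones Hspa5 and Hsp90b1 had not been called at day 0, 1 or 2 (log2 fold changes from -0.15 to 0.18).

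Ndrg1, a stress gene induced by hypoxia and during differentiation (chr15:66929318-66969640, minus strand), had the largest fall among genes above the median CPM. Its CPM was 174, 196, 198 and 205 in vehicle and 61.9, 67.0, 52.5 and 78.5 with C70 (log2 fold change -1.57, SE 0.0743, adjusted P = 2.38e-16, edgeR). The other 7 of 26 hypoxia response genes that were called comprised 6 lower, among them the oxygen sensor Egln1 (-0.53), and 1 higher (Lox). Glycolysis genes were lower in 8 of 19 cases and higher in 2, with a median of -0.31 (-0.24 without vehicle replicate 1). For both lists the share of lower genes lay above the 4.85% of all genes, and that of higher genes below 14.3%. Aldoa, the muscle-type aldolase, was at 5632, 4560.2, 4482 and 4974 CPM in vehicle and 3412, 3849.6, 3350.4 and 3555 with C70. The platelet isoform of phosphofructokinase, Pfkp, fell by 0.59 on the log2 scale. Gapdh and Ldha had log2 fold changes of -0.43 and -0.33, and Ldha lost its call without vehicle replicate 1 (-0.24), which had the highest value of both. Reads of Gapdh can also match its processed pseudogenes.

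By absolute amount, the largest falls were those of Aldoa, Scd2, Mt1, Bsg, Gapdh, Hspa5, Ldha and Slc35e3. The metallothioneins Mt1 and Mt2, which bind zinc and respond to glucocorticoids, fell (-0.70 and -0.61 on the log2 scale), as did Bsg (basigin), a partner of lactate transporters (-0.59). Mt1 was at 2712, 1925, 1953 and 2103 CPM in vehicle and 1207, 1577, 1289.7 and 1292 with C70. Vehicle replicate 1 was the highest library for Mt1, Mt2 and Bsg, and the log2 values without it were -0.57, -0.51 and -0.48. Other large falls among genes above the median CPM were Isg20 (-1.10), an exonuclease induced by interferon, and Cdsn (-1.04), a desmosomal protein. The bicarbonate transporter Slc4a4 (-0.89), the asparaginase Aspg (-0.88), Dcaf4 (-0.87), Trim29 (-0.83), Spsb1 (-0.75) and Pkd2l1 (-0.75) fell too.

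Part of the nuclear genes of oxidative phosphorylation were called lower in C70 cells, and most of these calls were lost without vehicle replicate 1. With all libraries, 16 of 37 complex I subunits, 13 of 25 subunits of complexes II to IV and 7 of 17 ATP synthase subunits were lower, and none was higher. The medians of these lists were -0.31, -0.33 and -0.31, and 4.85% of all genes were lower. Without vehicle replicate 1, 6, 1 and 0 were lower, where 3.75% of all genes were, and the medians were -0.19, -0.22 and -0.18. This replicate was the highest of the 8 libraries for all 37, 25 and 17 of these genes. Summed CPM of complex I was 7102 in vehicle replicate 1, 5350 to 5579 in the other vehicle libraries and 4669 to 5189 with C70. The 4 C70 values still lay below the 3 other vehicle values for 22 of 37, 19 of 25 and 12 of 17 genes. Over all genes the C70 values lay below these 3 vehicle values for 17.6% and above them for 21.3%. After quantile normalization of all libraries 11, 9 and 4 subunits were lower.

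Ndufa5, a complex I subunit, was at 154, 104, 111 and 107 CPM in vehicle and 76.9, 93.0, 74.1 and 79.5 with C70, with a log2 fold change of -0.56 (-0.40 without vehicle replicate 1). Cycs, the electron carrier cytochrome c, had a log2 fold change of -0.63 (-0.54 without it), whereas the catalytic ATP synthase subunit Atp5b was at 2459 ± 219 and 2357 ± 80.4 CPM (SD, n = 4 each). Mitochondrial ribosomal proteins showed the same dependence: 17 of 77 were lower with all libraries and 4 without vehicle replicate 1 (3.75% of all genes), which was the highest library for 75 of them.

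Transcripts of the mitochondrial genome went the other way. Of the 9 in the table, 5 were higher and none lower, against 14.3% and 4.85% of all genes. The median was 0.40 (0.42 and 6 higher without vehicle replicate 1), but 1 was higher, with a median of 0.10, after quantile normalization. The summed CPM of the 9 was 58670 to 62200 in vehicle and 73021 to 88390 with C70. mt-Cytb, the cytochrome b gene of complex III, was at 12715, 10440, 11158 and 11748 CPM in vehicle and 16260, 18613, 17110 and 15221 with C70. The log2 fold changes of mt-Nd5, mt-Nd2 and mt-Nd1 were 0.57, 0.53 and 0.40, with mt-Nd1 at -0.071 after quantile normalization, while mt-Co1, at 16840 ± 403 and 19597 ± 1326 CPM (SD, n = 4 each), did not reach the fold threshold. Nuclear copies of mitochondrial sequence can share reads with these genes.

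Interferon-stimulated genes showed more rises when vehicle replicate 1 was left out. With all libraries 9 of 36 were higher and 1 lower, with a median of 0.24. After quantile normalization 6 were higher and 1 lower, with a median of 0.14. Without vehicle replicate 1 they were 15 and 1, with a median of 0.44. Over all genes 14.3% were higher and 4.85% lower, or 14.2% and 3.75% without vehicle replicate 1. That replicate was the highest vehicle library for 28 of the 36. Ifi205 was at 22.3, 15, 15.2 and 17.8 CPM in vehicle and 45.5, 43.9, 48.9 and 49.3 with C70. Every C70 value was above every vehicle value. Isg20 was at 52.5, 43.0, 39.7 and 48.2 CPM in vehicle and 22.2, 24.7, 17.1 and 21.3 with C70. These members moved in opposite directions, both with separated groups. Of 15 complement genes 5 were higher and 2 lower, or 7 and 2 without vehicle replicate 1 and 3 and 3 after quantile normalization. Among them C1s1 rose (1.20) and C4b fell (-0.41). C3, the most abundant, was at 7215 ± 304 and 9907 ± 421 CPM (SD, n = 4 each), and its log2 fold change was 0.46 (adjusted P = 5.15e-09, edgeR) with TMM scaling but 0.098 (adjusted P = 0.287, limma) after quantile normalization. The class I gene H2-D1, one of a family of near-identical genes, rose by 0.42 on the log2 scale.

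The C70 effect at day 7 was then compared with that at days 0, 1 and 2. At those days 704, 1631 and 2021 genes were higher (5.89%, 13.6% and 16.9%) and 369, 933 and 1621 lower (3.09%, 7.8% and 13.6%). Of the 1707 genes higher at day 7, 298 (17.5%) had been higher at day 0, 785 (46.0%) at day 1 and 1107 (64.9%) at day 2, and 399 (23.4%) had been called at none of the 3 days. Of the 580 lower genes, 22 (3.79%), 115 (19.8%) and 208 (35.9%) had been lower on these days, and 244 (42.1%) had not been called before. The share of all genes called at none of these days was not computed, so 23.4% and 42.1% stand without a reference.

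Interaction tests compared the effects directly. The day 7 effect exceeded the day 0 effect for 1676 genes (14%) and was below it for 952 (7.96%). Against day 1 these numbers were 1276 (10.7%) and 978 (8.18%), and against day 2 they were 1423 (11.9%) and 1081 (9.04%). Among genes above the median CPM, 94 were higher and 50 lower at day 7 with an effect beyond that of each earlier day. Both sets were ranked by the smallest of the differences from days 0, 1 and 2, which favours genes with an opposite effect earlier. The 6 leading rises were Col11a1, Sept6 (a septin), Sned1, Mest, Sgk1 (a kinase induced by glucocorticoids) and Adamts12 (a matrix protease). Sgk1 had log2 fold changes of -0.20, -0.37 and -0.44 at days 0, 1 and 2 and of 0.59 at day 7, and the difference from day 2 was 1.02 (adjusted P = 8.25e-15, edgeR). Mest and Col1a1 were likewise lower after C70 at day 1 (-0.39 and -0.35) and higher at day 7.

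The 6 leading falls were Ndrg1, Isg20, Trarg1 (a protein of GLUT4 vesicles), Cdsn, Slc4a4 and C4b. Each of them had been higher after C70 on at least 1 earlier day, but the ranking favours such reversals. How many of all 50 lower genes had been so was not counted. Ndrg1 had log2 fold changes of 0.41, 0.86 and 0.67 at days 0, 1 and 2, and the difference between day 7 and day 2 was -2.24 (adjusted P = 3.49e-14, edgeR). Trarg1 turned from 2.26 at day 2 to -0.33 at day 7, and Cdsn from 2.99 at day 1 to -1.04. Slc4a4 was at 31.5, 65.8, 62.2 and 52.7 CPM in vehicle and 29.9, 28.6, 28.2 and 28.3 with C70, so that vehicle replicate 1 nearly met the C70 values.

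Some adipocyte genes turned in the other direction. Adipoq was lower after C70 at day 2 (-0.90) and higher at day 7 (0.35), a difference of 1.24 (adjusted P = 3.41e-10, edgeR). Acly went from -0.63 to 0.60, whereas Fabp4 went from -0.98 to -0.05 and was not called at day 7. In the list of adipocyte secreted and surface proteins, 12 of 20 members had been lower on day 2 against none at day 7 (1 without vehicle replicate 1), and in that of fatty acid and triglyceride synthesis 20 of 28 and 7 (5 without it). The share of all genes called lower was 13.6% on day 2 and 4.85% on day 7. Of the cell cycle genes, 47 of 51 G2/M genes had been lower at day 2, against 2 a week after removal (17 after quantile normalization).

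**Figure D5:**
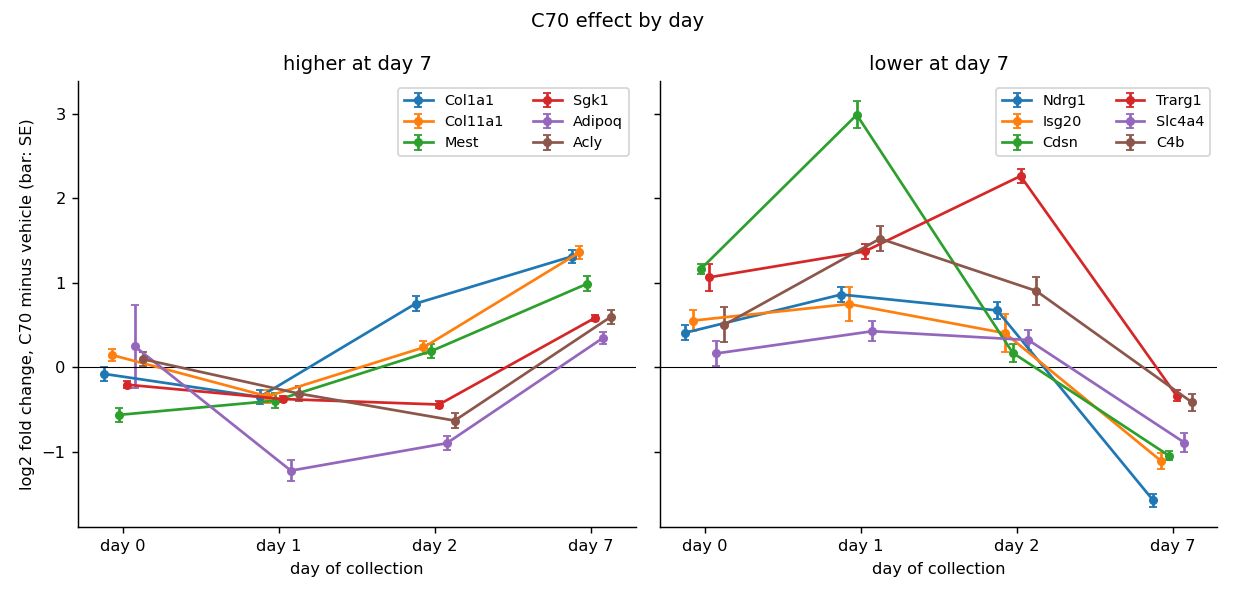
Log2 fold change of C70 against vehicle (vertical axis, bars are standard errors) at days 0, 1, 2 and 7 for 6 genes higher and 6 genes lower at day 7. Adipoq and Acly lie below 0 at day 2 and above it at day 7, and the lower genes, such as Trarg1 and Cdsn, lie above 0 on earlier days and below it at day 7.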

How the data were processed

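RNA-seq libraries (NuGEN Universal Plus mRNA-Seq, strand-specific) were aligned by the authors with STAR 2.7.2a to GRCm38 with Ensembl 97 annotation, and gene counts for all libraries were deposited as 1 table. The table is named as filtered and normalized, but its values are whole numbers whose totals differ between libraries, and they were treated as unnormalized counts. The counting program, its use of strand and the filter are not given in the sources used here. The submitters' processing notes also name edgeR.

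All 29 libraries were fitted together with edgeR 4.0.16 (R 4.3.3), by its quasi-likelihood test, after TMM scaling, with 1 coefficient for each of the 8 groups of treatment and day, and P values were adjusted over all 11959 genes by the Benjamini-Hochberg method. Calls required an adjusted P below 0.05 and a log2 change beyond 0.32, the thresholds of the study. CPM values use TMM library sizes, and gene positions and transcript lengths are those of GENCODE M21 (GRCm38). Day 7 was then refitted without vehicle replicate 1. Tested on simulated counts with 200 genes changed by 1.5-fold at day 7, the procedure recovered 88% of them with 3 false calls. The simulated vehicle libraries shared the same expected proportions, with no deviating library such as vehicle replicate 1. The simulation therefore does not measure the false calls that such a library could cause. The replicate numbers did not pair the libraries.

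The comparison, gene lists and cell type markers were chosen with earlier results of these data known. Genes named were 12 leading rises and 12 leading falls above the median CPM with separated groups, up to 4 called members and up to 2 of the most abundant other members of each list, genes named in the study, the 6 rises and 6 falls that exceeded each earlier day, the 8 largest differences in CPM per direction and the cell type markers. Some genes that this rule names are not reported here. Hsp90b1 lies outside this rule and was chosen after its values were seen. A planned check of promoter composition was void, since only 76.5% of genes matched a RefSeq window, and was not run. Alternatives were other scalings, tests, thresholds and filters, a replicate block, and leaving out each day 7 library.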

Additional observations from a re-analysis of the deposited data

Results flagged for a closer look

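In 222 groups of 4 values tested for the named genes (vehicle or C70 libraries of 1 gene), 20 held a library far from its 3 partners relative to the spread of the group. Chance alone gives about 1 in 20 groups. In 11 of the 20 the library was vehicle replicate 1. Its CPM was 751 for Lgals1, 142 for Adamts12, 74.7 for Slit3, 1620 for Adipoq, 4385 for Cidec, 4274 for Cfd, 1440 for Mt2, 154 for Ndufa5, 2783 for Atp5b, 131 for Kdm5c and 16.1 for Acta2. Other such vehicle values were 57.5 CPM for Dcn in replicate 2 and 1062 for Hspa5 in replicate 4. In the C70 group, replicate 2 stood apart for Col3a1 (2202 CPM), Wnt5a (18.3), Lpin1 (1047) and Aspg (28.8), and replicate 3 for Dcn (202), Klf5 (19) and Pck1 (21.8).

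The day 7 effect differed by edgeR's interaction test from that at day 0 for 2628 genes, at day 1 for 2254 and at day 2 for 2504. For some named genes the effect was called in opposite directions. The day 7 log2 fold change exceeded that of day 1 by 1.66 for Col1a1, 1.70 for Col11a1, 1.39 for Adamts12 and 1.38 for Mest, and that of day 2 by 1.24 for Adipoq, 1.22 for Acly, 0.87 for Acaca, 1.02 for Sgk1 and 0.96 for Sept6. The difference was -1.92 from day 1 for Pck1, -1.85 for Isg20, -4.03 for Cdsn, -1.24 for Spsb1 and -1.44 for Pkd2l1. From day 2 it was -2.24 for Ndrg1, -1.32 for C4b, -1.21 for Slc4a4 and -2.60 for Trarg1, and from day 0 it was -1.81 for Trim29.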

How the results depend on the processing

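The counts depended most on the fold threshold. With a fold change over 1.5, 948 genes were higher, 104 lower and 207 list members called (431 otherwise), and the interaction tests called 1228, 1116 and 1134 genes for days 0, 1 and 2. With the adjusted P value alone, 2667 were higher, 2252 lower and 744 list members called. Without the lowest 20% of genes by mean CPM, 361 were lower. With the day 7 libraries alone, 1398 were higher and 529 lower, and with a replicate block 1352 and 475. The labels do not say that a number marks a shared culture, and the correlations of same-numbered libraries (-0.06, -0.20, 0.21 and 0.13) did not pair them. DESeq2 called 1755 higher and 553 lower, and voom with sample quality weights 1709 and 477. Leaving out each day 7 library gave 1618 to 1803 higher and 448 to 689 lower genes.

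Of 1882 values of 111 named genes under these settings, 1802 kept their side of the threshold, 50 lost and 29 gained the call, and 1 value of a called gene changed sign (mt-Nd1, -0.071 after quantile normalization, cause not tested). Among genes that were not called, 23 values of 8 genes also changed sign, from log2 fold changes of at most 0.15 in size. Of 86 called genes, 79 remained called without each library in turn. Leaving out vehicle replicate 1 moved the called members of the respiratory, mitochondrial ribosome, interferon, S phase and cytosolic ribosome lists by 1.5 times or more in at least 1 direction, and the single lower genes of the TGF-β and BMP list and of the fibroblast and platelet growth factor list lost their calls. The same held for antigen presentation (4 to 6 higher, median 0.17 to 0.31) and fatty acid oxidation (1 to 3 higher, 2 to 0 lower). Small counts also moved for G2/M (2 to 3 lower), glucocorticoid response (3 to 2 lower), and cyclin D, CDK and RB family genes (1 to 3 higher). So did those for the circadian clock (2 to 1 higher, 1 to 2 lower) and adipocyte secreted and surface proteins (0 to 1 lower). The peroxisome and the glutathione and NRF2 lists went from 2 to 1 lower, and other enzymes of histone H3 lysine 4 from 1 to 0 higher. Depth limits genes near or below 1 CPM, such as Mmp3 and Ror2.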

Other observations

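Further gene lists were called as follows at day 7, where 14.3% of all genes were higher and 4.85% lower. Of 39 TGF-β and BMP signalling genes, 16 were higher and 1 lower, or 14 and 0 without vehicle replicate 1, and of 23 integrins and adhesion genes 9 and 1. Of 32 Hox and homeobox genes 9 were higher and none lower, as were 9 of 30 contractile and actin genes and 8 of 28 genes of insulin and IGF signalling. Of 8 chemokines and cytokines 5 were higher and 1 lower, and of 15 antigen presentation genes 4 and 0, or 6 and 0 without vehicle replicate 1 and 2 and 0 after quantile normalization. Among 21 glucocorticoid response genes 7 were higher and 3 lower. The integrated stress response and amino acid supply list had 6 of 32 higher and none lower, against 1 higher and 23 lower at day 2. Of all genes, 16.9% were higher and 13.6% lower at day 2. Of 80 cytosolic ribosomal proteins 2 were lower and none higher (median -0.043), but without vehicle replicate 1 none was lower and 2 were higher (median 0.10). Of 32 proteasome genes 0 were called in either direction, and of 42 lysosomal genes 3 were called each way. Of 27 p53 and senescence genes 5 were higher and 4 lower, or 7 and 4 without vehicle replicate 1. For 35 glutathione and NRF2 genes these numbers were 4 and 2, or 4 and 1, and for 20 circadian clock genes 2 and 1, or 1 and 2. For 18 other enzymes of histone H3 lysine 4 they were 1 and 1, or 0 and 1. For 28 peroxisome genes they were 1 and 2, or 1 and 1, and for 24 genes of branched-chain amino acid catabolism 1 and 1 in both. Of 28 genes of pyruvate entry and the TCA cycle only 1 was lower, and of 25 genes of fatty acid oxidation 1 was higher and 2 lower, or 3 and 0 without vehicle replicate 1.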
